A study of Rattus norvegicus with 10 samples.

Results

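The insulin-like growth factor (IGF) receptor and binding protein genes encode the proteins that receive these growth factors at the cell surface or hold them outside the cell. The genes were Igf1r, Igf2r, Igfbp3, Igfbp4, Igfbp5, Igfbp6 and Igfbp7, 7 in number, and every probe set that the platform annotation pairs with 1 of them alone was taken, brightest first. This gave 15 of the 31099 probe sets on the array, and all 15 passed the filter on low signal, which left 15521 probe sets for testing. The array annotation held 14218 genes in all. Igfbp5 had 5 probe sets, Igf1r, Igf2r, Igfbp3 and Igfbp6 had 2 each, and Igfbp4 and Igfbp7 had 1 each.

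IGF1 and IGF2 signal through IGF1R, a receptor tyrosine kinase that drives growth and protein synthesis in skeletal muscle. IGF2R, which is also the cation-independent mannose 6-phosphate receptor, takes IGF2 to the lysosome for breakdown and sorts newly made lysosomal enzymes. The binding proteins IGFBP3 to IGFBP6 hold IGFs with high affinity and set how much of them reaches the receptor, whereas IGFBP7 is a related secreted protein of low IGF affinity found around blood vessels.

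The samples were gastrocnemius, a calf muscle, of male Wistar rats that were 6 weeks old at the start of restriction. Rats received 5%, 10%, 20% or 30% less of a purified AIN diet, called calorie restriction (CR), or the control amount, for 1 month or for 1 week, and all were fasted for 16 h before muscle was taken. RNA of the 5 rats of a group was pooled and measured on 1 Affymetrix Rat Genome 230 2.0 array per group, 10 arrays in all. No group had a replicate array, so each test rests on the spread of arrays around a model, and their number limits the precision.

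Several properties of the arrays bear on the values. The trimmed mean signal was 85.79 to 86.3 on the 1-month arrays and 99.14 to 99.58 on the 1-week arrays, so the durations were not on 1 scale as deposited. The 1-week control stood apart: the mean log2 signal of 10 slow fibre genes was 9.07 to 10.12 on the 1-week restricted arrays and 8.27 on the 1-week control, against 8.98 to 9.55 on the 1-month restricted arrays and 9.47 on the 1-month control. By title every array belongs to 1 group. A further description line, however, gives the 1-week control a reduced diet and the 1-week 5% array the control diet. Calls with restriction or its level for Igfbp5, Grb10, Irs1 and Igf1 are therefore also given with both arrays exchanged, as are the Igfbp6 differences. Genes of all skeletal muscle fibres were present, with 8 of 8 tested and none at 0.

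The upstream sequences of Igfbp6 and Igf2r are shown because their brighter probe sets ran in opposite directions over the arrays, as described below. Each is the 250 bases before the RefSeq gene start on build GRCr8, printed 5′ to 3′ with matches to 4 searched motifs in capitals. The Igfbp6 window lies at chr7:135154669-135154918 on the plus strand, and the Igf2r window lies at chr1:50526628-50526877 on the plus strand.
Igfbp6: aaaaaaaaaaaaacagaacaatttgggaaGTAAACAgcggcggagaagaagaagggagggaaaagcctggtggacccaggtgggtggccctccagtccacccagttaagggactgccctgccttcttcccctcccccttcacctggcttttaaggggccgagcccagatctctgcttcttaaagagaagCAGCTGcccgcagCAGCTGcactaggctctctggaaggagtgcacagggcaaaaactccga
Igf2r: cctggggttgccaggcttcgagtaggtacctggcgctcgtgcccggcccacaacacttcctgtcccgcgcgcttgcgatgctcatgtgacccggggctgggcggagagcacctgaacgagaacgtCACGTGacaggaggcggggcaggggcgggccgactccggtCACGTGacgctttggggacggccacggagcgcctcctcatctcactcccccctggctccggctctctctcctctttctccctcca
The motifs were searched on both strands of the windows of all 7 genes. Igfbp6 held the forkhead core GTAAACA, which starts 221 bases before the gene start and occurs in 3.21% of 33469 promoters, and the myogenic E-box CAGCTG at 61 and 48 bases before it, which occurs in 12% of promoters. Igf2r held the E-box CACGTG, the sequence that clock factors bind, at 125 and 85 bases before the start, and Igf1r held it at 31 bases, against 5.59% of promoters with a match. G and C made up 68.0% of the Igf2r window and 79.6% of the Igf1r window, against a median of 51.2% over all promoters. Igfbp4 held TATAAA at 40 bases, as did 12.9% of promoters somewhere in the window. Igfbp3, Igfbp5 and Igfbp7 held none of these letters in this window.

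Igfbp5, the binding protein that differentiating myoblasts make and that attaches to the extracellular matrix, was the member that passed the test between restricted and control muscle. Its brightest probe set (1370960_at) had signals of 921.9, 615.7, 627.8, 622.3 and 647.7 in the control and at 5%, 10%, 20% and 30% CR after 1 month. After 1 week the signals were 1502.8, 1007.3, 919.8, 780.0 and 613.8 in the same order. At both durations every restricted array lay below its control, with a single drop already at 5% CR after 1 month and a lower signal at each further level after 1 week.

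Relative to control, the brightest Igfbp5 signal at 30% CR was 0.703 of the 1-month control and 0.408 of the 1-week control. With the 8 restricted arrays set against both controls in a model that allows for duration, it fell 1.64-fold (log2 difference −0.72 ± 0.13 SE, 95% interval −1.004 to −0.430, limma adjusted p = 0.0126). The mean log2 ratio within a duration was −0.55 at 1 month and −0.88 at 1 week. The third brightest probe set (1396152_s_at) had signals of 196.0, 162.0, 151.5, 130.9 and 143.7 from control to 30% CR after 1 month and of 342.5, 195.1, 222.5, 183.1 and 128.6 after 1 week, and it also fell (log2 difference −0.68 ± 0.17, limma adjusted p = 0.0496). Again no restricted array reached the control of its duration.

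**Figure D1:**
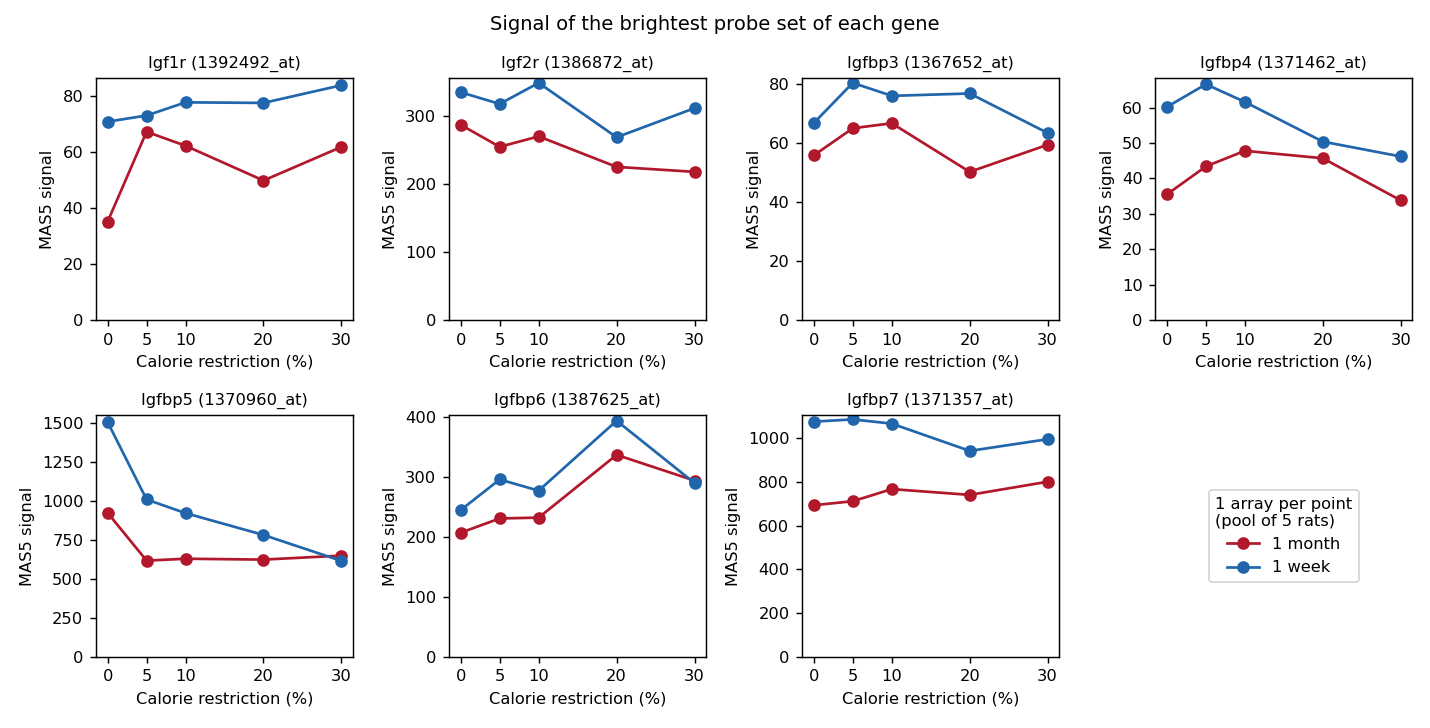
Signal (linear scale, from 0) of the brightest probe set of each gene against the level of calorie restriction in percent, with 1 point per array (RNA of 5 rats pooled), 1 month in red and 1 week in blue. With arrays as titled, both Igfbp5 controls, at 921.9 and 1502.8, lie above every restricted array of their duration. All Igfbp6 restricted arrays lie above their controls.

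The other 3 Igfbp5 probe sets did not pass this test. Probe set 1387348_at read 183.3, 185.8, 201.9, 148.2 and 197.6 from control to 30% CR after 1 month, and 739.3, 500.3, 471.5, 411.0 and 396.6 after 1 week. Restricted and control arrays thus overlapped at 1 month and were apart at 1 week, and the log2 difference over both durations was −0.38 ± 0.15 (limma adjusted p = 0.256). For 1397830_at the signals were 104.8, 104.0, 113.1, 96.0 and 83.1 after 1 month and 261.1, 152.7, 144.2, 138.9 and 92.7 after 1 week, which again overlapped only at 1 month (log2 difference −0.55 ± 0.20, limma adjusted p = 0.201). The dimmest, 1387347_at, read 63.7, 36.9, 46.0, 26.4 and 43.9 after 1 month and 95.5, 67.9, 64.3, 66.6 and 43.4 after 1 week, below control on every restricted array (log2 difference −0.72 ± 0.21, limma adjusted p = 0.105). Across the 10 arrays, centred within each duration, pairs of Igfbp5 probe sets correlated at r of 0.67 to 0.941. They read 1 gene, and 1396152_s_at and 1397830_at were designed from the same expressed sequence tag, so they are not replicates of the result.

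**Figure D2:**
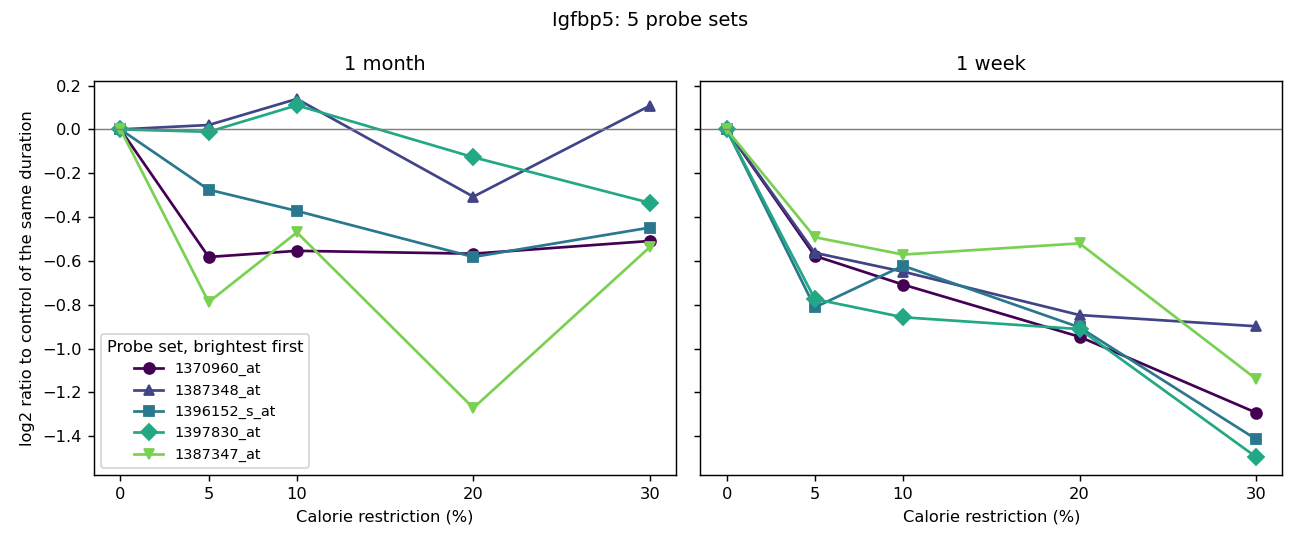
Log2 ratio of the signal of each of the 5 Igfbp5 probe sets to its control array (y) against calorie restriction in percent (x), with 1 month on the left, 1 week on the right and 1 array per point. All 5 probe sets lie below 0 on every 1-week restricted array, whereas after 1 month 1387348_at and 1397830_at lie between −0.34 and 0.14.

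The Igfbp5 calls depended on the 1-week control. Without that array the log2 difference of 1370960_at was −0.55 (limma adjusted p = 0.234) and that of 1396152_s_at was −0.42 (adjusted p = 0.481). With the 1-week control and 5% arrays exchanged the values were −0.36 (adjusted p = 0.606) and −0.17 (adjusted p = 0.836). For 1370960_at the call remained without each of the other 9 arrays, the 1-month control included (−0.88, adjusted p = 0.0485), and was lost without the variance trend (adjusted p = 0.0909). For 1396152_s_at the call was also lost without the 1-week 20% array (adjusted p = 0.0849) or any 1 of the 1-month arrays from control to 30% CR (0.0787, 0.0508, 0.0636, 0.0819 and 0.0704), with median centring (0.0576), without the filter (0.0749) and without the trend (0.149).

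The slope on the level of restriction asks whether the transcripts followed the dose. Igfbp5 fell with the level on 1370960_at (slope −0.24 ± 0.06 log2 per 10 percentage points, 95% interval −0.37 to −0.12, limma adjusted p = 0.0456) and on 1396152_s_at (slope −0.26 ± 0.06, adjusted p = 0.0337). The slope of 1397830_at was −0.26 ± 0.06 and just missed the threshold (limma adjusted p = 0.0505). In the 1-week arrays alone the slope of 1370960_at was −0.38 ± 0.05 (limma adjusted p = 0.0132), in the 1-month arrays alone −0.11 ± 0.07 (adjusted p = 0.67), and over the restricted arrays without controls −0.13 ± 0.05 (adjusted p = 0.398). Its call over all arrays was lost without any of the 1-week arrays from control to 30% CR (limma adjusted p = 0.151, 0.0632, 0.0589, 0.09 and 0.271), the 1-month control (0.147) or the 1-month 20% array (0.0708), and under the exchange of both 1-week arrays (0.142), and that of 1396152_s_at without the 1-week control (0.106), 10% (0.051), 20% (0.0655) or 30% array (0.245), the 1-month control (0.0996) or the 1-month 20% array (0.0636). Both slope calls were also lost with median centring, without the filter, without the variance trend and under the exchange of both 1-week arrays. The log2 ratios of 1370960_at were −0.58, −0.55, −0.57 and −0.51 from 5% to 30% CR after 1 month and −0.58, −0.71, −0.95 and −1.29 after 1 week.

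The difference between the 2 slopes was tested directly. For 1370960_at the slope at 1 month minus that at 1 week was 0.27 ± 0.09 log2 per 10 percentage points (95% interval 0.06 to 0.47, limma unadjusted p = 0.0141, adjusted p = 0.78). No member passed, nor did any of the 15521 probe sets tested (0% called by limma). An unadjusted limma p under 0.05 was reached by 5 of 15 member probe sets and 940 of all probe sets. The 5 were 4 probe sets of Igfbp5 and that of Igfbp7, or 2 of 7 genes with 1 probe set per gene. The count of 5 became 1 under the exchange of both 1-week arrays and 2 without the 1-week control, with 0 of Igfbp5 in either case. With median centring it was 1. Signals that fell at each step of restriction after 1 week were read on 3 of 15 member probe sets, against 1.92% of all tested. All 3 read 1 gene, Igfbp5. Their first step runs from the 1-week control to the 1-week 5% array, and with these arrays exchanged it would rise on all 3.

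Over the whole set, 2 of 15 probe sets fell and 0 rose in restricted against control arrays, both of Igfbp5, where 2.0% of all tested probe sets were called (1.13% rose and 0.876% fell). The median log2 difference over the 15 was −0.12, against −0.01 over all tested. It was −0.68 over the 5 Igfbp5 probe sets and 0.07 over the brightest probe set of each of the 7 genes. For the slope 2 of 15 fell, the same pair of Igfbp5 probe sets, against 2.0% of all called (0.941% rose and 1.06% fell). With 1 probe set per gene, 1 of 7 genes passed in each comparison. All 8 ratios to control lay below 0 for 4 of 15 probe sets, 3 of Igfbp5 and 1 of Igfbp3 (8.36% of all tested), and above 0 for 3 of 15, those of Igfbp6 and the brighter one of Igf1r (8.20% of all tested). Within a duration, all 4 ratios lay below 0 for 5 of 15 at 1 month (28.1% of all tested) and for 7 of 15 at 1 week (22.0% of all tested), and those at 1 week included all 5 of Igfbp5.

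**Figure D3:**
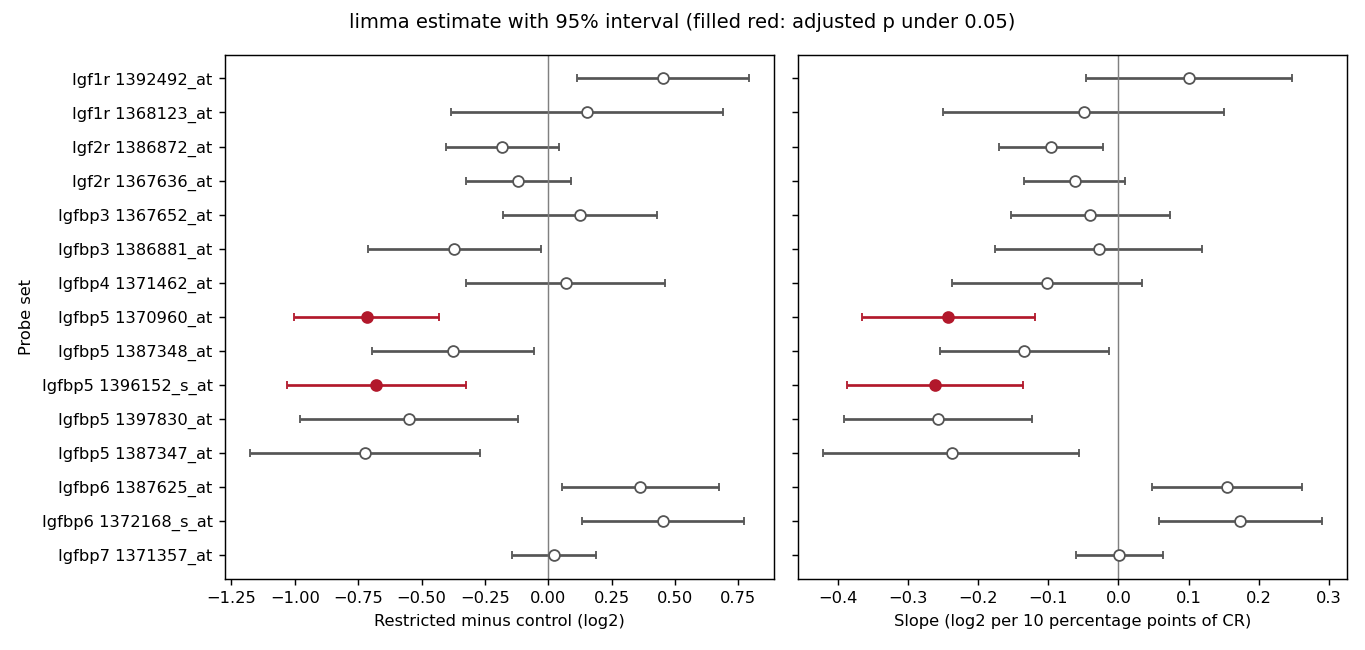
Limma estimates with 95% intervals for the 15 probe sets, as the log2 difference of restricted minus control arrays (left) and as the slope in log2 per 10 percentage points of restriction (right), with filled red points at an adjusted p under 0.05. The filled points are Igfbp5 1370960_at and 1396152_s_at on both sides, and the Igfbp6 intervals lie above 0 without passing the adjusted threshold.

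With arrays as titled, Igfbp6, a binding protein that prefers IGF2 to IGF1, was higher on every restricted array than on its control, but did not pass the test. Its brighter probe set (1387625_at) read 207.2, 231.0, 232.4, 337.2 and 294.2 from control to 30% CR after 1 month and 245.0, 296.1, 277.4, 394.2 and 290.1 after 1 week. The highest signal was at 20% CR at both durations, 1.63 times the 1-month control and 1.61 times the 1-week control. The dimmer one (1372168_s_at) read 156.4, 197.0, 195.5, 288.7 and 233.2 after 1 month and 210.1, 280.5, 217.3, 328.3 and 277.7 after 1 week, with the control again lowest and 20% CR again highest. The log2 differences were 0.36 ± 0.15 (95% interval 0.06 to 0.67, limma adjusted p = 0.253) and 0.45 ± 0.15 (0.13 to 0.77, adjusted p = 0.15), and the slopes were 0.16 ± 0.05 (adjusted p = 0.147) and 0.17 ± 0.05 log2 per 10 percentage points (adjusted p = 0.131). Both Igfbp6 probe sets correlated at r = 0.94 over the 10 arrays, centred within duration.

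Among receptors, Igf1r had its lowest brighter signal on each control. Probe set 1392492_at read 35.1, 67.2, 62.2, 49.8 and 61.8 from control to 30% CR after 1 month and 70.8, 73.0, 77.7, 77.5 and 83.8 after 1 week. The 1-month ratios were thus 0.51 to 0.94 log2 and the 1-week ratios 0.04 to 0.24 log2, so the difference over both durations (0.45 ± 0.16, 95% interval 0.11 to 0.79, limma adjusted p = 0.178) rested on the 1-month control, without which it was 0.14 (limma adjusted p = 0.87). The dimmer probe set, 1368123_at, read 23.7, 27.1, 29.7, 30.0 and 31.6 after 1 month and 32.3, 32.7, 46.2, 34.6 and 20.1 after 1 week, where the lowest signal was at 30% CR. Its log2 difference was 0.15 ± 0.25 (95% interval −0.38 to 0.69), and both probe sets correlated at only r = 0.134, so the array gives no single Igf1r pattern.

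Igf2r, the receptor that clears IGF2, varied little. Its brighter probe set (1386872_at) read 287.3, 254.9, 270.3, 225.4 and 218.1 from control to 30% CR after 1 month and 335.2, 318.0, 349.0, 269.0 and 311.8 after 1 week, so that 7 of 8 restricted arrays were below control. The log2 difference was −0.18 ± 0.10 (95% interval −0.41 to 0.04, limma adjusted p = 0.467) and the slope −0.10 ± 0.04 log2 per 10 percentage points (adjusted p = 0.199). The other (1367636_at) read 172.1, 160.9, 188.2, 148.2 and 150.8 after 1 month and 238.8, 214.7, 224.9, 219.5 and 207.0 after 1 week, with a log2 difference of −0.12 ± 0.10 (95% interval −0.33 to 0.09). On the brighter probe sets of both genes, Igf2r and Igfbp6 mirrored each other over the 10 arrays, with r = −0.917 after centring within duration, and the 20% CR arrays were among the lowest for Igf2r and the highest for Igfbp6. The brighter Igf2r probe set gave r = −0.898 with the dimmer one of Igfbp6. The dimmer Igf2r probe set gave weaker values, −0.65 with the brighter and −0.69 with the dimmer one of Igfbp6. Both Igf2r probe sets correlated at r = 0.682. The points share arrays, scaling and controls, and the correlation of −0.917 was noticed among all pairs of member probe sets.

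The remaining binding proteins gave no called difference with restriction. Igfbp3, the main carrier of IGFs in blood, read 55.9, 65.1, 66.8, 50.3 and 59.5 from control to 30% CR after 1 month and 66.9, 80.5, 76.1, 76.9 and 63.5 after 1 week on its brighter probe set (1367652_at), with restricted arrays on both sides of control. The second probe set (1386881_at) read 46.7, 32.7, 39.5, 40.1 and 42.5 after 1 month and 67.9, 52.3, 41.7, 52.0 and 51.7 after 1 week, below control throughout. Their log2 differences were 0.12 ± 0.14 (limma adjusted p = 0.758) and −0.37 ± 0.16 (adjusted p = 0.299), and they correlated at r = −0.454, so the probe sets of Igfbp3 disagreed.

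Igfbp4, a binding protein that restrains IGF action until it is cleaved, read 35.5, 43.4, 47.8, 45.7 and 33.8 from control to 30% CR after 1 month and 60.2, 66.6, 61.6, 50.4 and 46.2 after 1 week. At both durations the signal was above control at 5% and 10% CR and lowest at 30% CR, and the log2 difference of 0.07 ± 0.18 had an interval of −0.32 to 0.46. Igfbp7, the gene with the narrowest interval for restriction among the 7, read 693.5, 711.7, 767.1, 740.7 and 800.8 after 1 month and 1075.8, 1085.9, 1066.7, 941.9 and 995.4 after 1 week. Its log2 difference was 0.02 ± 0.08, with an interval of −0.14 to 0.19, and its slope was 0.00 ± 0.03 log2 per 10 percentage points (−0.06 to 0.06).

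Muscle of the 1-month rats, which were older, was then set against that of the 1-week rats. On the deposited scale 10 of 15 probe sets were lower at 1 month and 0 higher (33.9% of all tested called, 32.8% lower and 1.13% higher), but the median over all tested probe sets was itself −0.21 log2. After quantile normalization 2 of 15 were lower (10.1% of all called, 5.49% lower and 4.66% higher), and after centring each array on its median 1 of 15 was lower (8.79% called, 2.76% lower and 6.04% higher).

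Igfbp5 probe set 1387348_at was lower at 1 month under every scaling. Its signals were 148.2 to 201.9 on the 1-month arrays and 396.6 to 739.3 on the 1-week arrays, a log2 difference of −1.43 ± 0.12 (2.69-fold lower, limma adjusted p = 4.16e-06). The difference was −1.24 ± 0.12 after quantile normalization (adjusted p = 4.08e-05) and −1.14 ± 0.14 after median centring (adjusted p = 0.00012). The other 4 Igfbp5 probe sets had log2 differences of −0.65 to −0.39 as deposited and none of these passed under either other scaling, so the probe sets of this gene gave different sizes for the difference between durations. The call of 1396152_s_at was also lost on leaving out any 1 of 6 arrays, the 1-week control among them (−0.27, limma adjusted p = 0.0698). Igfbp7 had signals of 693.5 to 800.8 at 1 month and 941.9 to 1085.9 at 1 week (log2 difference −0.48 ± 0.06, limma adjusted p = 0.000105), with −0.28 ± 0.06 after quantile normalization (adjusted p = 0.00999) and −0.18 ± 0.08 after median centring (adjusted p = 0.186).

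**Figure D4:**
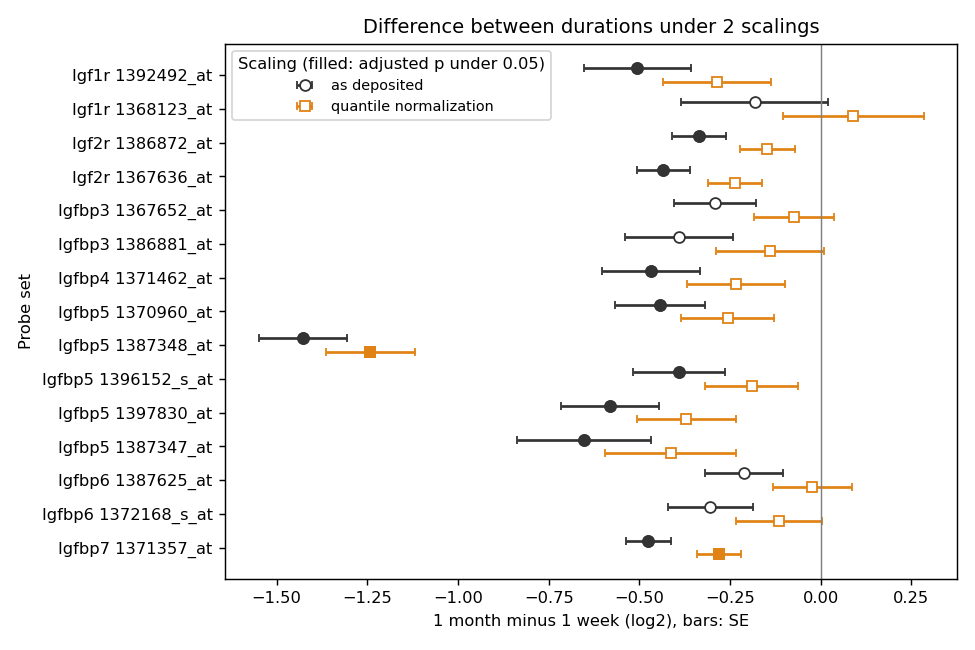
Log2 difference of 1-month minus 1-week arrays for the 15 probe sets, with SE bars, as deposited (dark circles) and after quantile normalization (orange squares), filled where the adjusted p was under 0.05. Igfbp5 1387348_at stands at −1.43 and −1.24, and Igfbp7 is the other probe set that is filled under both scalings.

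As deposited, both Igf2r probe sets (log2 differences −0.34 ± 0.07 and −0.43 ± 0.07), the brighter Igf1r probe set (−0.51 ± 0.15) and Igfbp4 (−0.47 ± 0.14) were also lower at 1 month, and none of them passed under the other scalings. The Igfbp3 and Igfbp6 probe sets and the dimmer Igf1r probe set did not pass under any scaling. For the brighter Igfbp6, the brighter Igfbp3 and the dimmer Igf1r probe sets the sign turned with median centring, at 0.08, 0.00 and 0.11, and for the last also with quantile normalization, at 0.09. Every 1-month array lay below every 1-week array for 4 of 15 probe sets, namely Igf1r 1392492_at, Igf2r 1367636_at, Igfbp5 1387348_at and Igfbp7 (19.3% of all tested).

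The rest of the IGF system gave the setting of these genes. Of 22 other genes listed, among them ligands, proteases and signalling proteins, 20 were on the array and 12 passed the filter, and Igfbp1, Igfbp2 and Igfals were below it. With restriction 1 of the 12 fell and 0 rose, where 0.876% of all tested probe sets fell and 1.13% rose. The median log2 difference was −0.15, against −0.008 over all tested. With the level 2 of the 12 fell and 0 rose, where 1.06% of all tested fell and 0.941% rose. The median slope was −0.04, against −0.003 over all tested. The gene that fell in both was Grb10, an adaptor that holds back insulin and IGF1 receptor signalling, and only on its brightest probe set (1371517_at). For difference and slope, limma adjusted p was 0.178 and 0.0669 on 1394610_at and 0.387 and 0.184 on 1397211_at. The brightest probe set read 1260.9, 851.9, 809.8, 871.4 and 754.6 from control to 30% CR after 1 month. After 1 week it read 1879.6, 1704.8, 1498.4, 1455.1 and 1272.6. Its log2 difference was −0.49 ± 0.10 (limma adjusted p = 0.0182), lost without the 1-week control (0.0753) or the 1-month control (0.318), under the exchange of both 1-week arrays (difference −0.40, adjusted p = 0.388) and without the variance trend (0.109). Its slope was −0.17 ± 0.04 log2 per 10 percentage points (adjusted p = 0.0353), lost without the 1-week control (0.123), 5% (0.06), 20% (0.0676) or 30% array (0.154) and the 1-month control (0.0933) or 30% array (0.0775), under the exchange (0.0723), with median centring (0.0661), without the filter (0.0615) and without the trend (0.14). Irs1, which passes the receptor signal on to PI3 kinase, had 134.5, 168.0, 124.1, 113.5 and 65.9 after 1 month and 224.2, 180.2, 135.2, 146.8 and 110.8 after 1 week. It fell with the level (slope −0.33 ± 0.06, limma adjusted p = 0.00731). This call held when each of the 10 arrays was left out and under the exchange of both 1-week arrays, but not without the variance trend (adjusted p = 0.0564). Nor was the slope called by limma over the restricted arrays alone (adjusted p = 0.0627), the 1-week arrays alone (0.0905) or the 1-month arrays alone (0.182).

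The ligands are given with the receptors they bind. Igf1 read 206.5, 122.0, 137.2, 139.6 and 140.7 from control to 30% CR after 1 month and 331.7, 270.5, 354.3, 200.6 and 194.9 after 1 week on its brightest probe set, a log2 difference of −0.52 ± 0.17 (limma adjusted p = 0.145). The slope of that probe set was −0.186 (limma adjusted p = 0.182), and that of Igf1 1388469_at was −0.128 (adjusted p = 0.213). The dimmest Igf1 probe set (1382599_at) fell with the level (slope −0.25 ± 0.05, limma adjusted p = 0.0288), but not without the 1-week control (0.114) or 30% array (0.174) or the 1-month control (0.0739) or 30% array (0.0622), under the exchange of both 1-week arrays (0.0977), with median centring (0.075) or without the variance trend (0.0735). Igf2 read 212.3, 153.4, 197.1, 192.3 and 199.3 after 1 month and 725.2, 616.5, 597.6, 515.8 and 504.6 after 1 week, below control on all 8 restricted arrays (log2 difference −0.29 ± 0.11, limma adjusted p = 0.213). Between durations 6 of the 12 were lower at 1 month as deposited and 1 higher, on the scale where 32.8% of all tested probe sets were lower and 1.13% higher. After quantile normalization 4 were lower and 2 higher (5.49% and 4.66% of all tested), and after median centring 3 were lower and 2 higher (2.76% and 6.04%). As deposited, those lower were Igf2 (log2 difference −1.63 ± 0.10), Igf1 (−0.84 ± 0.14), Grb10 (−0.79 ± 0.08), Htra1, a protease that cuts IGF binding proteins (−0.43 ± 0.07), Irs1 (−0.42 ± 0.12) and Shc1 (−0.34 ± 0.10), and Grb14 was higher (0.34 ± 0.09). Igf2 (−1.44 and −1.34), Igf1 (−0.64 and −0.55), Grb10 (−0.59 and −0.50) and Grb14 (0.53 and 0.63) passed after quantile normalization and after median centring as well, and Ghr, the growth hormone receptor, passed under these scalings alone (0.34 and 0.44). Htra1 passed after quantile normalization but not after median centring, and Irs1 and Shc1 passed under neither.

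For Igf2r the other side of its role, the sorting of lysosomal enzymes, was covered by 8 genes, all tested. None was called with restriction or with the level by limma, where 2 and 0 had an unadjusted p under 0.05, and the median log2 difference was 0.11. Between durations 2 of the 8, Sort1 (−0.26 ± 0.09) and Gnptab (−0.39 ± 0.12), were lower at 1 month as deposited, and 0 were higher. On that scale 32.8% of all tested probe sets were lower and 1.13% higher, with a median of −0.21 log2. Values of these genes under the other scalings are not given here.

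Markers of the cells in the muscle moved in part with these results. Slow fibre genes (10 of 11 on the array, none at 0) had a summed signal of 7212.8 to 10634.0 on 1-month restricted arrays against 9552.2 on the 1-month control, and of 6875.2 to 15589.2 on 1-week restricted arrays against 3625.0 on the 1-week control, the array on which the Igfbp5 calls depended. Fibroblast genes (12 of 12 on the array, none at 0) summed to 9314.0 to 12934.8 on 1-month restricted arrays against 9669.8 on the control. On 1-week restricted arrays they summed to 16539.6 to 17902.8 against 15433.6 on the control. With restriction 3 of 11 tested rose (Mfap5, Scara5 and Clec3b), in the direction of Igfbp6, where 1.13% of all tested probe sets rose. Endothelial genes (9 of 10 on the array, none at 0) summed to 706.0 to 814.4 on 1-month restricted arrays against 815.4 on the control, and to 878.8 to 1201.1 on 1-week restricted arrays against 1003.8 on the control, with 0 of 9 called with restriction. Genes of all fibre types summed to 37738.6 to 44953.2 on 1-month restricted arrays against 49978.4 on the control, and to 54565.9 to 57867.5 on 1-week restricted arrays against 51599.8 on the control, with 0 of 8 called. Slow fibre genes had 0 of 10 called with restriction (median log2 difference 0.76) and fast fibre genes 0 of 13. Pericyte and smooth muscle genes had 0 of 7 called, satellite cell genes 0 of 4 and adipocyte genes 0 of 3. Of 7 macrophage genes 1 rose, Cd163, which read only 13.3 on the 1-week control. Values of single markers under the exchange of both 1-week arrays are not given here. Under that exchange 1 of all tested probe sets was called with restriction and 161 with the level. Without the 1-week control the counts were 27 and 117. With the level of restriction, Kdr, the main VEGF receptor of endothelium, fell (slope −0.36 ± 0.05 log2 per 10 percentage points, limma adjusted p = 0.00153), in the direction of Igfbp5. Kdr was the 1 gene called of 9 endothelial genes, where 1.06% of all tested probe sets fell. The median slope of the 9 was −0.063, and Vwf (0.16) and Cldn5 (0.105) had slopes above 0. In the direction of Igfbp6, 4 of 11 fibroblast genes rose (Mfap5, Scara5, Clec3b and Dcn, slopes 0.10 to 0.21), against 0.941% of all tested. So did C1qb among 7 macrophage genes (0.31 ± 0.07, limma adjusted p = 0.0262) and Cfd among 3 adipocyte genes (0.43 ± 0.07, adjusted p = 0.00802). No gene of the other marker lists was called for the slope. The actin 3′ to 5′ ratio was 1.369 to 1.605 on 1-month restricted arrays and 1.444 on the control, and 1.235 to 1.555 on 1-week restricted arrays and 1.699 on the control. The part of fibre type, other cells and RNA quality in the Igfbp5 and Igfbp6 values was not tested. In pooled muscle RNA, fewer cells of a type and less RNA per cell cannot be told apart.

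Finally, the genes whose signals ran most like each member were read, as Pearson r of log2 signal centred within duration over 10 arrays, among 12508 probe sets with 1 gene. For Igfbp5 these were Jph2, which joins the plasma membrane to the calcium store of muscle (r = 0.975), St3gal1, a sialyltransferase (0.961), and Sh3bp5 (0.958). For Igfbp6 they were Map3k7cl (0.933), Cercam (0.922) and Ecm2, an extracellular matrix protein (0.921). For Igf1r they were the copper transporter Slc31a1 (0.967), Dym (0.966) and Dapk1, a calmodulin-regulated kinase (0.955). For Igf2r they were Mid1 (0.94), Kpna6 (0.921) and Arhgap20 (0.919), and for Igfbp3 Taf1 (0.977), Rgs4 (0.963) and Kctd11 (0.925). For Igfbp4 they were Nlk (0.95), Manf (0.925) and Ankrd11 (0.919), and for Igfbp7 Mfsd12 (0.927), 2810025M15Rikl (0.918) and Rilpl1 (0.904). No member was among the 3 genes most like another.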

How the data were processed

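Per the submitters' processing notes, the deposited table holds MAS5 intensities (linear scale), with 1 value per probe set and array and no detection calls, scaled array by array by the authors. The signals of 31099 probe sets were floored at 0.1 and taken to log2, and 15521 with a mean signal of at least 17.84 (50th percentile) were tested. Symbols came from the platform annotation, in which 20832 probe sets carried 1 gene, 436 several and 9831 none, and 20764 were matched to RefSeq.

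The R (4.3.3) package limma (3.58.1) was run with lmFit and trended eBayes on all tested probe sets, with Benjamini-Hochberg adjustment over all of them at 0.05. Restricted against control and the slope on the level had duration as a factor, and duration had the level as a covariate. Alternatives were quantile normalization, median centring, no filter, log2 of signal plus 32, no variance trend, ranked levels, subsets of arrays, the exchange of 2 arrays, and each array left out.

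All probe sets of the members were named, and other genes came from lists of the IGF system, of lysosomal sorting and of cell markers. Named outside the members were genes of the IGF and sorting lists that passed a test, Igf1 and Igf2, the 3 genes most like each member, and, beyond this rule, markers called with restriction or its level. Members and lists were chosen with earlier results of these data known. Promoters were the RefSeq sequences of GRCr8. The scripts were tested on simulated data.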

Additional observations from a re-analysis of the deposited data

How the results depend on the processing

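Restricted against control gave 311 called probe sets, 77 without the variance trend, 1 with the 1-week control and 5% arrays exchanged, and 27 to 455 with each array left out in turn. Of the 15 member probe sets 2 were called, 1 with median centring, 1 without the filter, 0 without the trend, 0 with the exchange, and 0 to 2 with an array left out. The slope on the level gave 310 calls, 196 with median centring, 73 without the trend, 161 with the exchange, 38 over the restricted arrays alone, 109 over the 1-week arrays alone, 6 over the 1-month arrays alone, and 86 to 368 with an array left out. For members it gave 2, then 0 with median centring, no filter, no trend, the exchange, the restricted arrays alone or the 1-month arrays alone, 1 over the 1-week arrays alone, and 0 to 3 with an array left out. Duration gave 5263 calls, 1575 after quantile normalization and 1365 after median centring, and 4402 to 4932 with an array left out, and 10 member calls, 2, 1 and 9 to 12 under the same settings. The difference between slopes gave 0 calls by limma, and 0 to 2 with an array left out, none of them a member. With the exchange, the 1-week 5% log2 ratio of Igfbp5 1370960_at was 0.58 where it was −0.58 as titled, by construction. The other causes were not tested. With ranked levels the slope of 1370960_at was −0.20 log2 per rank (limma adjusted p = 0.0136). Pools of 5 rats and 1 array per group hide the spread between rats, and dim probe sets such as those of Igf1r, Igfbp3 and Igfbp4 limit what can be read from single arrays.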
